A study of Mus musculus with 9 samples.

Results

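The comparison set mouse stem cells kept in leukaemia inhibitory factor (LIF) with Activin A (ALSC) against the cells they were made from, kept in basic fibroblast growth factor (bFGF) with Activin A (AFSC). Each cell type had 3 libraries, numbered 1 to 3, and these 6 libraries of the 9 in the series were chosen by their labels and not by any measured value. AFSC came from mouse blastocysts of the strain Sv129 x GOF/GFP F1 and are described as resembling epiblast stem cells, at passages 15 to 20. ALSC were AFSC moved to the LIF medium for more than 5 passages, and were collected at passages 20 to 25. The remaining 3 libraries, ABSC, were AFSC moved to Activin A and BMP4, at passages 25 to 30. They entered the fit, and their levels are given where they help to place an ALSC value. All 3 cell types thus shared the strain, the basal medium and Activin A. The protocol gives the recipe with LIF under the abbreviation of the BMP4 medium, so the ALSC medium is read from the name of the cells. It also names an RNA kit of its own for ALSC. Medium, passage and possibly RNA kit therefore changed together between ALSC and AFSC and cannot be told apart. No label says whether the libraries of a cell type came from separate cultures, so p-values measure the spread between these libraries.

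LIF binds a receptor made of LIFR and gp130 (Il6st), which activates JAK kinases, and these phosphorylate the transcription factor STAT3. In mouse embryonic stem cells STAT3 sustains the naive state of pluripotency, that of the blastocyst before implantation. Basic FGF signals through FGF receptors to the ERK kinases, and together with Activin A it holds mouse cells in the primed state, that of the epiblast after implantation. The comparison asks which genes differ when LIF takes the place of bFGF with Activin A kept.

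Ensembl gene counts ran from 18978651 to 21578737 a library, and 16178 genes passed the filter on low counts. Levels are in CPM, counts relative to the total of the library, scaled between libraries. A log2 change is the log2 fold change of ALSC over AFSC. Where 3 levels stand for a cell type, they are those of libraries 1, 2 and 3 in that order. Library number also separated the data, because in each cell type the library numbered 1 stood apart from numbers 2 and 3. In the 6 ALSC and AFSC libraries the first principal component held 43.8% of the variance and separated the cell types, and the second held 30.5% and set both libraries numbered 1 apart from the rest. A fit with the library number as a block was therefore run beside the fit without it. It is called the block here, and its counts are given where they differ by more than 1.5 times.

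Without the block, 573 genes rose and 566 fell in ALSC against AFSC, that is 7.04% of the genes tested (3.54% higher and 3.5% lower; edgeR adjusted p under 0.05). Risen and fallen are used below in that sense. With the block 1796 genes rose and 1794 fell, 22.2% of those tested, and these included 568 of the 573 and 564 of the 566 in the same direction. In each of the 1139 genes called without the block, the 3 ALSC values lay wholly above or wholly below the 3 AFSC values, as they did in 28.5% of all genes tested. Rises were larger than falls, with a median absolute log2 fold change of 0.78 against 0.60. Of the genes that rose 224 did so at least 2-fold and 28 at least 8-fold, against 146 and 6 of those that fell. Leaving out 1 library lowered the total of called genes to 349 (AFSC 2), 345 (AFSC 3), 642 (ALSC 2) or 559 (ALSC 3). Without both libraries numbered 1 it was 815 (4.98% of 16353 genes tested), and 317 of these were higher and 498 lower. Scaling by library size only gave 666 higher and 444 lower genes, in place of 573 and 566.

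**Figure D1:**
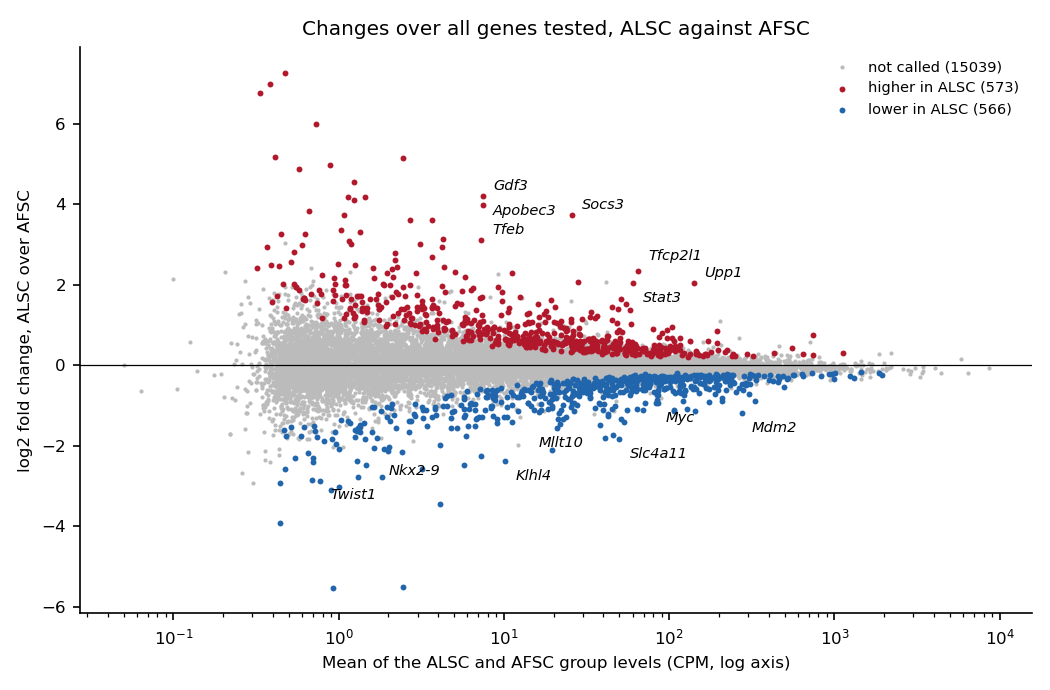
Each point is 1 of the 16178 genes tested, with the mean of the ALSC and AFSC levels (CPM, log axis) across and the log2 fold change of ALSC over AFSC up. Red points rose (573) and blue points fell (566), and the largest changes sit among genes under 10 CPM.

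The 15 largest rises among genes at 10 CPM or more were led by Gdf3, a secreted ligand of the TGF-beta family (chr6:122605403-122610087). Gdf3 had 7.44, 16.9 and 17.9 CPM in ALSC, against 0.567, 0.992 and 0.705 CPM in AFSC (log2 change 4.20, SE 0.45, edgeR adjusted p = 0.000845). ABSC held 8.25 CPM, above AFSC too. Upp1, uridine phosphorylase (chr11:9118103-9136170), had 277, 203 and 199 CPM in ALSC, against 63.5, 52.6 and 49.7 CPM in AFSC (log2 change 2.03, SE 0.16, edgeR adjusted p = 0.000110). The fit with the block gave Upp1 an adjusted p of 5.01e-12 (edgeR), and its ABSC level was below both, at 32.3 CPM. The small GTP-binding protein Gem had 15.1, 14.9 and 15.3 CPM in ALSC, against 3.19, 5.29 and 4.32 CPM in AFSC (log2 change 1.82, SE 0.19, edgeR adjusted p = 0.000703). Klhl22 (1.95), Vill (1.93) and Ap3b2 (1.66) were also among the 15. Gdf3, Upp1 and Gem were called in each of the 6 fits that left out 1 library, while Ap3b2 lost the call in 5 of them.

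The 15 largest falls included the kelch family member Klhl4 (chrX:114474333-114560829), with 2.57, 4.33 and 3.01 CPM in ALSC, against 14.8, 17.6 and 18.9 CPM in AFSC (log2 change -2.38, SE 0.18, edgeR adjusted p = 0.000110). Psors1c2 had 8.41, 6.73 and 6.98 CPM in ALSC, against 28.4, 34.1 and 33.3 CPM in AFSC (log2 change -2.11, SE 0.16, edgeR adjusted p = 0.000110). In ABSC these genes went different ways, with Klhl4 at 29.4 CPM, above AFSC, and Psors1c2 at 8.01 CPM, near ALSC. Slc4a11, a membrane transporter (chr2:130684113-130697519), had 24.3, 19.6 and 21.4 CPM in ALSC, against 66.4, 85.8 and 81.9 CPM in AFSC (log2 change -1.84, SE 0.12, edgeR adjusted p = 6.08e-05). The neural and endocrine peptide precursor Vgf fell too (-1.45, SE 0.30, edgeR adjusted p = 0.0199), as did the leukotriene B4 receptors Ltb4r1 (-1.34) and Ltb4r2 (-1.34). Ltb4r1 and Ltb4r2 are neighbours on chromosome 14. Klhl4, Psors1c2 and Slc4a11 were called in each of the 6 fits that left out 1 library, while Vgf lost the call in 4 of them.

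Genes were grouped into 69 lists by function, which held 320 of the 1139 called genes and 2762 of those tested. The lists describe and were not tested as sets. Of the 69, 50 had a larger share of called members than the 7.04% of all genes. Members and lists were chosen with earlier results of these data known, so that count does not measure enrichment. Of protein-coding genes alone 8.15% were called. Beside a list's counts stand those with the block, and those with 1 library left out, where they differ by more than 1.5 times. Leaving out AFSC 2 moved 56 of the 69 counts by that much, AFSC 3 moved 55, ALSC 3 moved 46, ALSC 2 moved 33, AFSC 1 moved 23 and ALSC 1 moved 10. Members named beyond the 4 largest changes of their list, and most genes named as not called, were chosen after their values were seen.

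**Figure D2:**
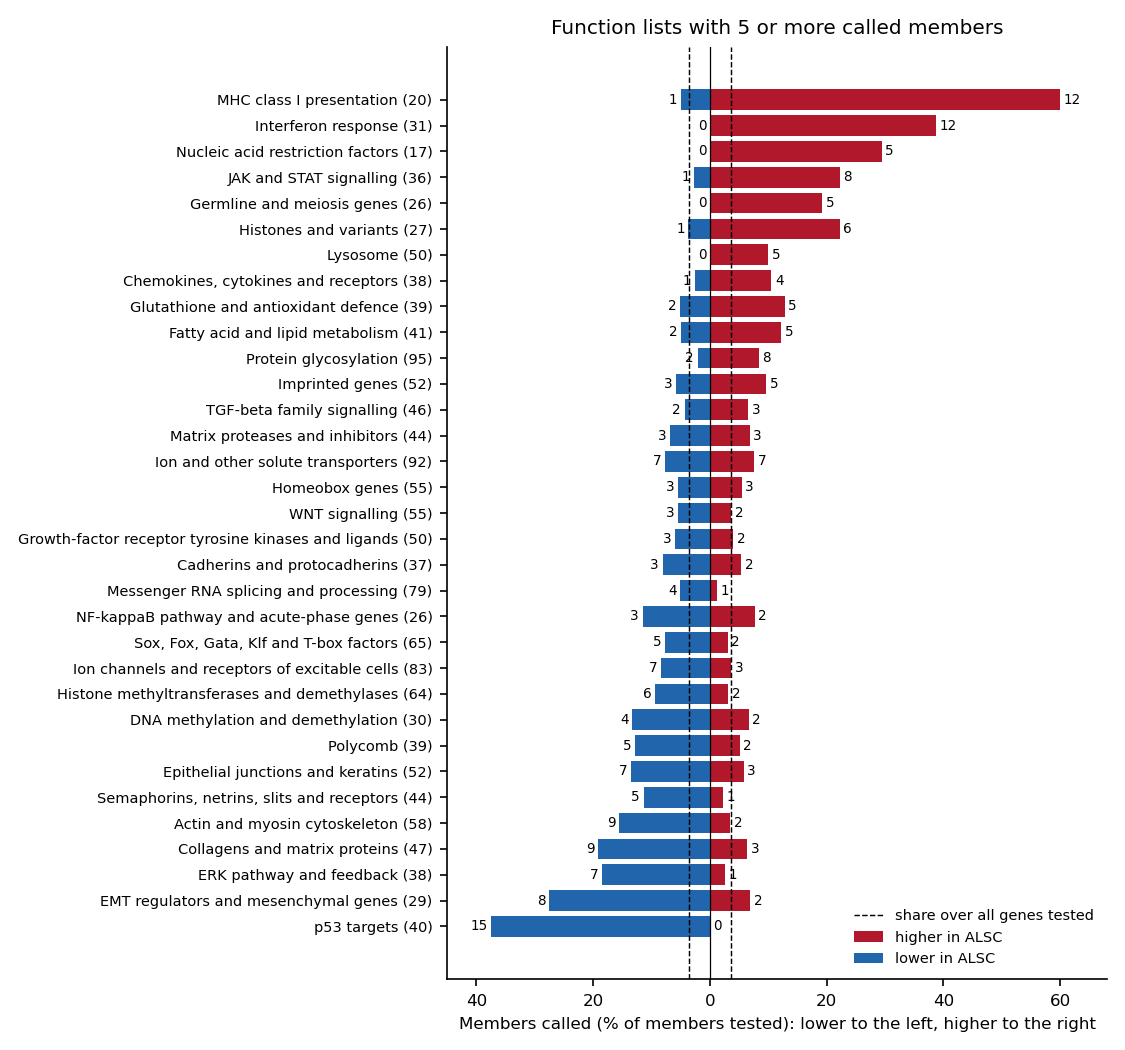
Bars give the share of tested members (number in brackets) that rose in ALSC, to the right, or fell, to the left, for the lists with 5 or more called members, with the number called at each bar's end. Dashed lines mark the shares over all genes, 3.54% higher and 3.5% lower; MHC class I presentation, with 12 higher and 1 lower, and p53 targets, with 0 higher and 15 lower, stand at the ends.

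Several members of the pathway that LIF feeds rose in ALSC, its receptor subunit Il6st, its kinase Jak2, Stat3 and the feedback inhibitor Socs3 among them. In the JAK and STAT list 8 of 36 tested members rose and 1 fell (13 and 4 with the block, and 4 to 9 called with 1 library left out, fewest without AFSC 2 or AFSC 3), with a median log2 fold change of 0.10 against 0.0026 over all genes. Of the receptor, Il6st had 59.5, 76.0 and 73.0 CPM in ALSC, against 44.2, 49.6 and 48.9 CPM in AFSC (log2 change 0.55, SE 0.14, edgeR adjusted p = 0.0487). Lifr, at 26.5 CPM in ALSC against 22.2 CPM in AFSC, was not called (0.26, SE 0.11, edgeR adjusted p = 0.205), and Cntfr, the receptor of the related factor CNTF, fell (-0.66, SE 0.12, edgeR adjusted p = 0.0114). The endogenous ligand gene Lif had 13.1, 10.2 and 10.8 CPM in ALSC, against 14.6, 14.8 and 16.7 CPM in AFSC, which passed the test with the block (edgeR adjusted p = 0.0233 with the block) and missed it without (log2 change -0.44, SE 0.14, edgeR adjusted p = 0.0975). Among the kinases Jak2 rose (0.65, SE 0.12, edgeR adjusted p = 0.0126), and so did Jak3 (0.92, SE 0.13, edgeR adjusted p = 0.00297, overlapping Insl3), while Jak1 was not called (-0.14, SE 0.12, edgeR adjusted p = 0.570). Cntfr lost the call in 2 of the 6 fits with 1 library left out.

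Stat3 itself (chr11:100885098-100939540) had 101, 97.2 and 91.3 CPM in ALSC, against 26.6, 21.7 and 22.5 CPM in AFSC (log2 change 2.03, SE 0.12, edgeR adjusted p = 5.27e-05). ABSC held 23.7 CPM, close to AFSC. The neighbouring Stat5a, whose annotated region overlaps that of Stat3, had 7.49, 3.13 and 3.72 CPM in ALSC, against 1.60, 1.61 and 1.503 CPM in AFSC (log2 change 1.61, SE 0.36, edgeR adjusted p = 0.0264). Because the library kit does not mark the strand, the reads of genes that overlap could not be separated. Socs3, the feedback inhibitor of gp130 signalling (chr11:117966079-117970047), had 63.3, 39.8 and 39.99 CPM in ALSC, against 4.07, 3.21 and 3.52 CPM in AFSC (log2 change 3.73, SE 0.21, edgeR adjusted p = 5.27e-05). ALSC 1 held the highest Socs3 level, and all 3 ALSC libraries were above the ABSC mean of 5.65 CPM. Bcl3, a nuclear partner of NF-kappaB and a STAT3 target in mouse embryonic stem cells, had 6.43, 4.33 and 3.87 CPM in ALSC, against 0.979, 1.13 and 0.846 CPM in AFSC (log2 change 2.30, SE 0.29, edgeR adjusted p = 0.00190). Steap4, a metalloreductase that inflammatory cytokines induce, had 1.70, 2.71 and 2.09 CPM in ALSC, against 0.206, 0.0945 and 0.0470 CPM in AFSC (log2 change 4.18, SE 0.46, edgeR adjusted p = 0.000965). Stat3, Socs3, Bcl3 and Steap4 were called in each of the 6 fits that left out 1 library, while Il6st lost the call in 5 of them, Jak2 in 2 and Stat5a in 3.

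The promoters of Socs3, Steap4 and Irf1 are shown because they carry TTCNNNGAA, the paired half-site that STAT dimers bind, within 250 bases before to 50 bases after the start that RefSeq gives. The sequences are those of RefSeq on GRCm38.p6, which gave a promoter for 11113 of the genes tested, and capitals mark the match, searched on both strands. The windows are chr11:117969317-117969616, minus strand for Socs3, chr5:7960222-7960521, plus strand for Steap4 and chr11:53769764-53770063, plus strand for Irf1, a transcription factor of the interferon response described below. The Socs3 window lies inside the gene region printed above, since the gene table starts Socs3 further upstream than RefSeq does.
Socs3: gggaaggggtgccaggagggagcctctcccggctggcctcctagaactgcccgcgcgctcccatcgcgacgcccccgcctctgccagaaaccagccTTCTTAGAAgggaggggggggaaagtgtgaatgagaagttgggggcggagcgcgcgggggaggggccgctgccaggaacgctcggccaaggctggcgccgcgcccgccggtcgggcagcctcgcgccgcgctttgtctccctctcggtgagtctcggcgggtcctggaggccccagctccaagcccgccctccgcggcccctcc
Steap4: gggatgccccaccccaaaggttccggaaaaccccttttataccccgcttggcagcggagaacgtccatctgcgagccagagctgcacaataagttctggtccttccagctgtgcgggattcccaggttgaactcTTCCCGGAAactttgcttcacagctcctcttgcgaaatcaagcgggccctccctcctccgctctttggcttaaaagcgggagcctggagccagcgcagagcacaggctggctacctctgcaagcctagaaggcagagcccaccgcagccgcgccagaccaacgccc
Irf1: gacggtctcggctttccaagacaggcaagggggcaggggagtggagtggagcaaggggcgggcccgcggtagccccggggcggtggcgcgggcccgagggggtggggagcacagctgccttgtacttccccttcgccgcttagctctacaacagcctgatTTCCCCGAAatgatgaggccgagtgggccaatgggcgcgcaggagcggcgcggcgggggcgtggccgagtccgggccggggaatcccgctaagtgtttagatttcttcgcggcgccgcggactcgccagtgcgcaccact
The motif was present in 8.14% of all 11113 promoters. It was present in 47 of 421 promoters of genes that rose (11.2%), in 27 of 430 of genes that fell (6.28%) and in 8.1% of those not called. Of the JAK and STAT list 2 of 28 promoters held it (7.14%). The Stat3 window held 0 matches. These are descriptions of letters in a window, not of binding.

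Interferon-stimulated genes, which act against viruses, were higher in ALSC where they were called. In the list of the interferon response 12 of 31 tested members rose and 0 fell (18 and 1 with the block, and 4 to 11 called with 1 library left out, fewest without AFSC 3), with a median of 0.64. Without both libraries numbered 1 the list had 7 higher and 0 lower. Zbp1, a sensor of left-handed nucleic acids, had 2.53, 2.66 and 2.14 CPM in ALSC, against 0.155, 0.236 and 0.329 CPM in AFSC (log2 change 3.30, SE 0.36, edgeR adjusted p = 0.000849). Isg15, the ubiquitin-like modifier, had 4.55, 3.34 and 3.36 CPM in ALSC, against 0.464, 0.756 and 0.611 CPM in AFSC (log2 change 2.604, SE 0.42, edgeR adjusted p = 0.00616). Both were under 1 CPM in every AFSC library. The membrane protein Ifitm1 had 45.8, 41.2 and 48.6 CPM in ALSC, against 7.94, 11.3 and 12.8 CPM in AFSC (log2 change 2.08, SE 0.43, edgeR adjusted p = 0.0204). Zbp1 and Isg15 were called in each of the 6 fits that left out 1 library, while Ifitm1 lost the call in 4 of them and Parp12 in 5.

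The antiviral synthetase genes Oas1a (1.41) and Oasl2 (1.54), the RNA sensor Ddx58 (0.69), the tether Bst2 (0.84) and the ADP-ribosyltransferase genes Parp9, Parp12 and Parp14 (0.96, 2.42 and 1.84) rose as well. Parp9, Parp14 and their partner Dtx3l (0.54) lie side by side on chromosome 16, and Parp9 overlaps Dtx3l. The regulator Irf1 had 69.9, 60.2 and 65.7 CPM in ALSC, against 31.1, 32.1 and 31.2 CPM in AFSC (log2 change 1.05, SE 0.17, edgeR adjusted p = 0.00754). Other parts of the pathway were not called, among them Irf7 (-0.26, SE 0.34, edgeR adjusted p = 0.735), Irf9 (-0.012, SE 0.14, edgeR adjusted p = 0.977) and Stat2 (0.32, SE 0.19, edgeR adjusted p = 0.372). Stat2 passed the test with the block (edgeR adjusted p = 0.0288 with the block). Zbp1 (0.475 CPM in ABSC, edgeR adjusted p = 0.00165), Ddx58 (9.12 CPM, edgeR adjusted p = 0.000472) and Bst2 (27.1 CPM, edgeR adjusted p = 0.00174) were also higher in ALSC than in ABSC. For Isg15 (2.84 CPM in ABSC, edgeR adjusted p = 0.531), Parp12 (3.74 CPM, edgeR adjusted p = 0.548) and Oasl2 (6.74 CPM, edgeR adjusted p = 0.775) the difference from ABSC, whose name gives BMP4 and not LIF, did not pass the test. Oasl2 lost the call in 6 of the 6 fits with 1 library left out, Dtx3l in 5, Oas1a, Ddx58 and Bst2 in 2, and Parp9 in 1.

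Major histocompatibility complex (MHC) class I presentation, in which the proteasome cuts proteins into peptides that are loaded on class I molecules, had the largest share of called members of any list. Of the list, 12 of 20 tested members rose and 1 fell (6 to 12 called with 1 library left out, fewest without AFSC 3) (65.0% called), and the median was 0.77. The immunoproteasome subunit Psmb8 had 19.9, 19.5 and 17.5 CPM in ALSC, against 4.74, 6.38 and 6.58 CPM in AFSC (log2 change 1.68, SE 0.35, edgeR adjusted p = 0.0207). Psmb9 (0.73, overlapping Tap1) and Psmb10 (0.61), the other immunoproteasome subunits, and the proteasome activators Psme1 (0.49) and Psme2 (0.90) also rose. Of the loading machinery Tapbp, tapasin, had 50.2, 50.4 and 52.6 CPM in ALSC, against 17.3, 24.9 and 23.3 CPM in AFSC (log2 change 1.22, SE 0.22, edgeR adjusted p = 0.0105, overlapping Zbtb22). The peptide transporter subunit Tap2 rose (0.81, SE 0.12, edgeR adjusted p = 0.00446), and Tap1 did not pass the test (-0.20, SE 0.14, edgeR adjusted p = 0.480).

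Among the class I heavy chains H2-D1 had 42.2, 31.3 and 29.4 CPM in ALSC, against 18.7, 15.8 and 14.5 CPM in AFSC (log2 change 1.07, SE 0.15, edgeR adjusted p = 0.00306). H2-K1 had 144, 118 and 113 CPM in ALSC, against 75.5, 63.8 and 64.8 CPM in AFSC (log2 change 0.88, SE 0.10, edgeR adjusted p = 0.00145). H2-M3 (1.49) and H2-Q4 (0.59) rose as well, and since class I genes are near-copies of each other, how reads were split among them is uncertain. B2m, the light chain of every class I molecule, was not called, at 20.6 ± 3.39 CPM in ALSC and 20.7 ± 1.54 in AFSC (SD, n = 3 each; -0.0052, SE 0.13, edgeR adjusted p = 0.988). Pdia3, a chaperone of the loading complex that also folds other proteins, fell (-0.31, SE 0.078, edgeR adjusted p = 0.0422, overlapping Catsper2). Against ABSC the test was not passed for H2-D1 (30.6 CPM in ABSC, edgeR adjusted p = 0.525), Tapbp (43.9 CPM, edgeR adjusted p = 0.573) or Psmb8 (16.1 CPM, edgeR adjusted p = 0.711). Tapbp, H2-D1 and H2-K1 were called in each of the 6 fits that left out 1 library. Psmb8, Psmb10 and Pdia3 lost the call in 5 of the 6 fits with 1 library left out, Psmb9 and Psme1 in 2, and H2-M3 in 1.

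Nucleic acid restriction factors, which block retroviruses and mobile elements, had 5 that rose and 0 that fell among 17 tested members (7 and 1 with the block). Apobec3, a cytidine deaminase that mutates retroviral DNA (chr15:79891659-79915906, overlapping Cbx7), had 13.5, 14.8 and 13.6 CPM in ALSC, against 0.979, 0.520 and 1.13 CPM in AFSC (log2 change 3.99, SE 0.24, edgeR adjusted p = 5.27e-05). Its relative Apobec1 had 10.9, 11.1 and 11.9 CPM in ALSC, against 3.61, 3.31 and 3.52 CPM in AFSC (log2 change 1.70, SE 0.13, edgeR adjusted p = 0.000110). The RNA helicase Mov10, which restricts retrotransposons, had 49.8, 45.3 and 43.6 CPM in ALSC, against 20.5, 20.2 and 19.5 CPM in AFSC (log2 change 1.20, SE 0.089, edgeR adjusted p = 9.18e-05). The zinc-finger antiviral protein Zc3hav1 rose by a like amount (1.15, SE 0.16, edgeR adjusted p = 0.00276). In Apobec3, Apobec1 and Mov10 the 2 sets of values were wide apart. Apobec3 (2.65 CPM in ABSC, edgeR adjusted p = 0.000105) and Apobec1 (7.89 CPM, edgeR adjusted p = 0.0245) were higher in ALSC than in ABSC. For Mov10 (40.3 CPM in ABSC, edgeR adjusted p = 0.181) the difference from ABSC did not pass the test. Apobec3, Apobec1, Mov10 and Zc3hav1 were called in each of the 6 fits that left out 1 library.

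The promoters of Isg15 and Apobec3 are shown for a repeat found in interferon-stimulated response elements, GAAA and GAAA with any 2 bases between them. The motif was chosen after the values were seen. Their windows are chr4:156200769-156201068, minus strand for Isg15 and chr15:79892158-79892457, plus strand for Apobec3 (RefSeq, GRCm38.p6). The gene table starts Apobec3 upstream of the RefSeq start, so that this window lies inside the region printed above. Capitals mark the matches on either strand.
Isg15: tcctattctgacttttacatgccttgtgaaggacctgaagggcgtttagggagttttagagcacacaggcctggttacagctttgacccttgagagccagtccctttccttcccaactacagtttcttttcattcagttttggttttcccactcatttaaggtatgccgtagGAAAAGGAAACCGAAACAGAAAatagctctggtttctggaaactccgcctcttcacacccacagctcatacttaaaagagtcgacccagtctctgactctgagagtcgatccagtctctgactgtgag
Apobec3: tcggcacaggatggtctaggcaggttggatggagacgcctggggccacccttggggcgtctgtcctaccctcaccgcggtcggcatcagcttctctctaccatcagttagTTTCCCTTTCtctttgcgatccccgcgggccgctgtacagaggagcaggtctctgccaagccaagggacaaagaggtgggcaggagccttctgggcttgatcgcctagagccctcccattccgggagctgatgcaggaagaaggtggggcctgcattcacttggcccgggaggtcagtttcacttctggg
This motif was present in 3.41% of all promoters, in 30 of 421 of genes that rose (7.13%), in 13 of 430 of genes that fell (3.02%) and in 3.27% of those not called. In the interferon list 11 of 25 promoters held it (44.0%) and in the MHC list 5 of 17 (29.4%), and most of these genes were not called. Of the interferon genes with the motif only Isg15, Oas1a, Bst2 and Ddx58 rose. Eif2ak2, Gbp2, Gbp3, Ifih1, Ifitm2, Ifitm3 and Trim21 were not called. Of the MHC genes with it Psme1 rose, while B2m, Erap1, H2-T22 and H2-T23 were not called. TTCNNNGAA was present in 10 of the same 25 interferon promoters, and of those genes only Oas1a, Irf1 and Bst2 rose. Both motifs were found in 46 promoters, and in 12 of them matches of the 2 motifs overlapped.

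**Figure D3:**
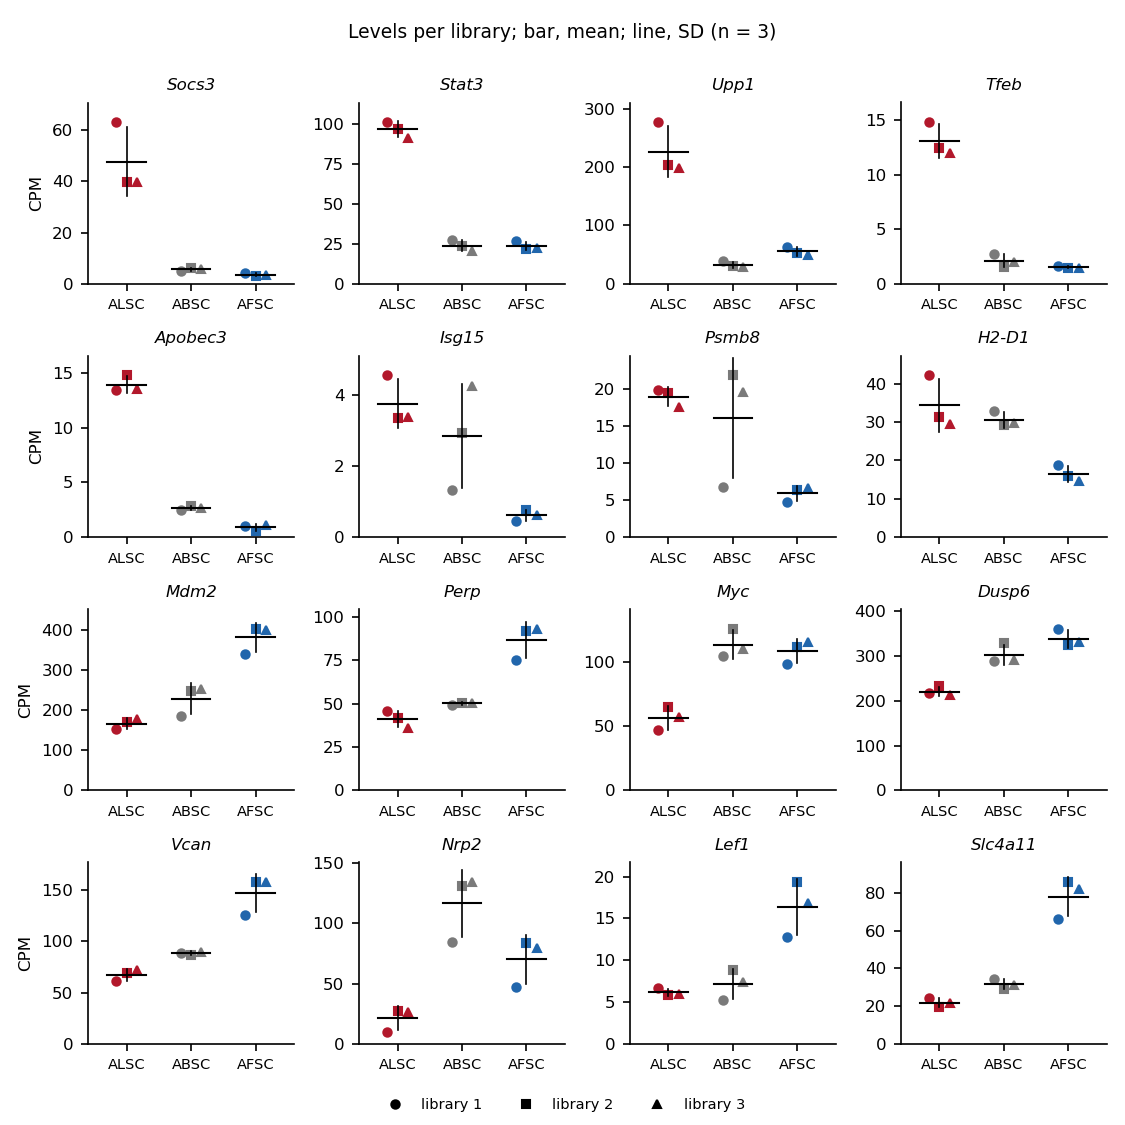
Levels (CPM, from 0) of 16 genes in each library, with ALSC at the left, ABSC in the middle and AFSC at the right of every panel, marker shapes for the library number, a bar for the mean and a line for the SD (n = 3). The ALSC libraries lie clear of the AFSC libraries in all 16 panels, and for Isg15, Psmb8 and H2-D1 the ABSC libraries reach or approach the ALSC levels.

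Targets of p53, the factor that answers DNA damage with arrest or death, fell in ALSC where they were called. Of the list, 0 of 40 tested members rose and 15 fell (1 and 24 with the block, and 9 to 17 called with 1 library left out, fewest without AFSC 2 or AFSC 3 or ALSC 3), and its median was -0.40. Without both libraries numbered 1 it had 0 higher and 17 lower. Mdm2, the ubiquitin ligase that p53 induces and that degrades p53 (chr10:117688875-117710758), had 153, 169.9 and 178 CPM in ALSC, against 341, 404 and 401 CPM in AFSC (log2 change -1.19, SE 0.12, edgeR adjusted p = 0.000632). Perp, a membrane protein of epithelial junctions and cell death, had 45.7, 41.7 and 36.1 CPM in ALSC, against 75.0, 92.2 and 93.3 CPM in AFSC (log2 change -1.08, SE 0.11, edgeR adjusted p = 0.000500). Plk2, a kinase of the stress response, had 72.0, 96.3 and 99.7 CPM in ALSC, against 151, 219.5 and 218 CPM in AFSC (log2 change -1.14, SE 0.27, edgeR adjusted p = 0.0365). In Plk2, ALSC 1 and AFSC 1 were the lowest libraries of their cell types. Mdm2 and Perp were called in each of the 6 fits that left out 1 library, while Plk2 lost the call in 5 of them and Bax in 4.

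Further falls in the list were those of Ddit4l (-0.99), Rap2b (-0.79), the death-domain adaptor Pidd1 (-0.65), the AKT inhibitor Phlda3 (-0.59), the death receptor Tnfrsf10b (-0.58), Ccng1 (-0.41) and the pro-apoptotic Bax (-0.34). Cdkn1a, the cell cycle inhibitor p21, had 118, 144 and 156 CPM in ALSC, against 165, 209.7 and 219 CPM in AFSC, and was called with the block (edgeR adjusted p = 0.000946 with the block) but not without it (-0.50, SE 0.19, edgeR adjusted p = 0.157). Trp53 itself was not called, at 259, 366 and 322 CPM in ALSC, against 346, 356 and 356 CPM in AFSC (-0.16, SE 0.11, edgeR adjusted p = 0.453). ABSC means lay between the other cell types for Mdm2 (229 CPM) and Perp (50.1 CPM). Both were lower in ALSC than in ABSC in mean level, and the test was passed for Mdm2 (edgeR adjusted p = 0.0381) and not for Perp (edgeR adjusted p = 0.123). Ccng1 lost the call in 5 of the 6 fits with 1 library left out.

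Among genes of the ERK pathway and its feedback, which the bFGF of the AFSC medium feeds, more fell than rose. In the list 1 of 38 tested members rose and 7 fell (3 and 10 with the block, and 3 to 6 called with 1 library left out, fewest without AFSC 2 or AFSC 3 or ALSC 3). The ERK phosphatase Dusp6 had 216, 232 and 212 CPM in ALSC, against 361, 323 and 331 CPM in AFSC (log2 change -0.62, SE 0.071, edgeR adjusted p = 0.00112). Dusp5, its nuclear relative, fell by a like amount (-0.74, SE 0.16, edgeR adjusted p = 0.0225). Myc, an ERK and STAT3 target, had 47.1, 65.3 and 57.2 CPM in ALSC, against 98.4, 112 and 116 CPM in AFSC (log2 change -0.94, SE 0.12, edgeR adjusted p = 0.00217). ABSC, which also grew without bFGF, held 114 CPM of Myc. Its relative Mycn was not called (-0.015, SE 0.18, edgeR adjusted p = 0.977). Etv4, an ETS factor downstream of FGF receptors (-0.64, SE 0.13, edgeR adjusted p = 0.0180), Phlda1 (-1.51, SE 0.20, edgeR adjusted p = 0.00223) and the AP-1 subunit Fosl1 (-1.02, SE 0.22, edgeR adjusted p = 0.0224) fell too. Dusp6, Myc and Phlda1 were called in each of the 6 fits that left out 1 library, while Dusp5 lost the call in 5 of them, Etv4 in 3 and Fosl1 in 5.

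Egr1, an immediate early gene, split by library number, with 22.2, 97.6 and 93.1 CPM in ALSC, against 32.1, 142 and 116 CPM in AFSC. ALSC 1 and AFSC 1 held far less than the others, and Egr1 was called with the block (edgeR adjusted p = 0.0365 with the block) and not without it (-0.45, SE 0.63, edgeR adjusted p = 0.753). Spry4, a feedback inhibitor of the pathway, had 13.2, 33.6 and 31.1 CPM in ALSC, against 34.99, 37.6 and 42.3 CPM in AFSC and was not called (-0.56, SE 0.31, edgeR adjusted p = 0.344). Nf1, the RAS inhibitor neurofibromin, was the member that rose (0.38, SE 0.086, edgeR adjusted p = 0.0254). Nf1 lost the call in 5 of the 6 fits with 1 library left out.

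Of the FGF ligands and receptors 2 of 20 tested members rose and 1 fell (3 and 2 with the block). Fgf17 had 8.04, 7.94 and 6.32 CPM in ALSC, against 1.13, 0.898 and 0.846 CPM in AFSC (log2 change 2.95, SE 0.23, edgeR adjusted p = 0.000113). Fgf8, a ligand of the same subfamily expressed in the primitive streak, had 81.1, 62.6 and 69.2 CPM in ALSC, against 29.1, 23.3 and 28.0 CPM in AFSC (log2 change 1.40, SE 0.26, edgeR adjusted p = 0.0128), and missed the test with the block (edgeR adjusted p = 0.0540 with the block). Fgf4, the ligand that embryonic stem cells make, had 41.3, 44.0 and 37.0 CPM in ALSC, against 66.1, 63.4 and 63.7 CPM in AFSC (log2 change -0.66, SE 0.085, edgeR adjusted p = 0.00220). Fgf5 was not called (-0.36, SE 0.13, edgeR adjusted p = 0.125), nor was the receptor Fgfr1, at 226 ± 8.83 CPM in ALSC and 215 ± 11.3 in AFSC (SD, n = 3 each; 0.07, SE 0.061, edgeR adjusted p = 0.577). Fgf17 and Fgf4 were called in each of the 6 fits that left out 1 library, while Fgf8 lost the call in 2 of them.

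Pluripotency factors moved in both directions. Tfcp2l1, a STAT3 target of the naive state (chr1:118627945-118685168), had 66.8, 128 and 132 CPM in ALSC, against 17.3, 23.4 and 23.2 CPM in AFSC (log2 change 2.35, SE 0.25, edgeR adjusted p = 0.000878), with ALSC 1 lowest of its cell type. Nanog had 268, 229.6 and 253 CPM in ALSC, against 146, 133 and 139.7 CPM in AFSC (log2 change 0.84, SE 0.092, edgeR adjusted p = 0.000881). Sox2, by contrast, had 10.4, 12.2 and 12.9 CPM in ALSC, against 27.0, 25.0 and 23.9 CPM in AFSC (log2 change -1.09, SE 0.13, edgeR adjusted p = 0.00155). Pou5f1, which encodes OCT4, was lower by a small amount (-0.20, SE 0.05, edgeR adjusted p = 0.0408). Pou3f1, a POU factor of the epiblast after implantation, had 29.1, 31.1 and 28.0 CPM in ALSC, against 78.2, 83.1 and 71.8 CPM in AFSC (log2 change -1.40, SE 0.089, edgeR adjusted p = 6.08e-05). Utf1, an undifferentiated-cell chromatin factor, fell (-0.90, SE 0.13, edgeR adjusted p = 0.00376). Klf4 was at 2.41 ± 0.127 CPM in ALSC and 2.26 ± 0.617 in AFSC (SD, n = 3 each; 0.09, SE 0.23, edgeR adjusted p = 0.874) and was not called. Esrrb, with 88.0, 108 and 104 CPM in ALSC, against 108, 95.9 and 103 CPM in AFSC, was not called either (-0.029, SE 0.11, edgeR adjusted p = 0.919). Klf2, another naive-state factor, was called with the block (edgeR adjusted p = 7.97e-05 with the block) but not without it, at 5.19, 19.5 and 21.1 CPM in ALSC, against 1.55, 4.02 and 3.90 CPM in AFSC (2.27, SE 0.77, edgeR adjusted p = 0.119). The naive genes Zfp42, Tbx3 and Prdm14 were too low to be tested. Tfcp2l1, Nanog, Sox2, Pou3f1 and Utf1 were called in each of the 6 fits that left out 1 library, while Pou5f1 lost the call in 6 of them.

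**Figure D4:**
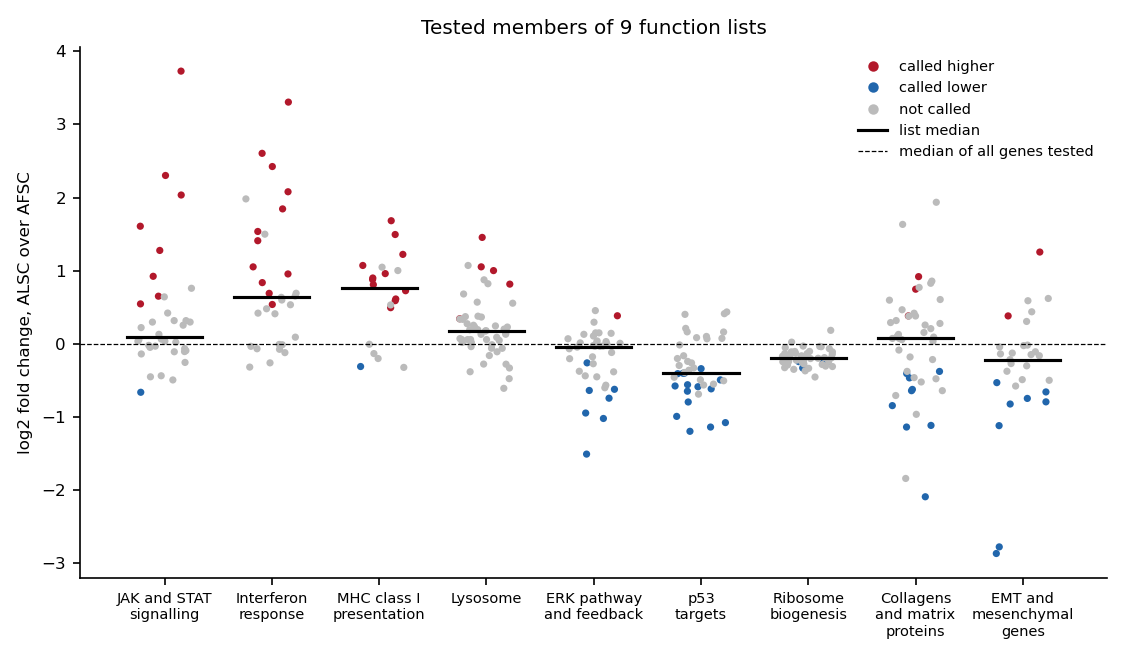
Each point is a tested member of 1 of 9 function lists, placed by its log2 fold change of ALSC over AFSC, with members that rose in red, those that fell in blue and the list median as a bar. The medians of the interferon (0.64) and MHC class I (0.77) lists lie above that of all genes (0.0026, dashed), and that of p53 targets (-0.40) below it. The median of collagens and matrix proteins (0.075) lies above it too, though 3 members rose and 9 fell.

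Few genes of ribosome assembly were called, and all of those were lower. Of the ribosome biogenesis list 0 of 48 tested members rose and 4 fell (0 and 32 with the block, and 0 to 2 called with 1 library left out, fewest without AFSC 1 or AFSC 2 or AFSC 3). The share called was 8.33%, against 7.04% of all genes, and 22.2% of all genes were called with the block. Its median was -0.19. The methyltransferase Fbl, fibrillarin, had 359, 377 and 378 CPM in ALSC, against 452, 434 and 435 CPM in AFSC (log2 change -0.25, SE 0.05, edgeR adjusted p = 0.0177). Bop1 (-0.25, overlapping Mroh1 and Scx), Lyar (-0.24) and the RNA polymerase I subunit Polr1e (-0.33, overlapping Fbxo10) were the others that fell. The summed level of the list was 14686, 18438 and 18427 CPM in the 3 ALSC libraries, against 18453, 20302 and 20684 CPM in the 3 AFSC libraries. ALSC 1 and AFSC 1 were the lowest of their cell types, and those sums overlap between them. Lyar lost the call in 6 of the 6 fits with 1 library left out, Bop1 and Polr1e in 5, and Fbl in 3.

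In the list of translation factors 0 of 50 tested members rose and 1 fell (1 and 16 with the block, and 0 to 2 called with 1 library left out, fewest without AFSC 2 or AFSC 3). The one that fell was Pabpc1, the poly(A)-binding protein, with 1715, 1852 and 1799.6 CPM in ALSC, against 2028, 2157 and 2163 CPM in AFSC (log2 change -0.24, SE 0.047, edgeR adjusted p = 0.0146). Of cytosolic ribosomal proteins, 1 of 81 tested members rose and 0 fell (2 and 4 with the block, and 0 to 1 called with 1 library left out, fewest without AFSC 1 or AFSC 2 or ALSC 2 or ALSC 3), with a median of 0.006. Heat shock proteins and chaperones had 1 that rose and 2 that fell among 40 tested members (2 and 10 with the block, and 0 to 3 called with 1 library left out). Their share called was 7.5%, against 7.04% of all genes, and with the block 30.0%, against 22.2%. The regulator Hsf1 fell slightly (-0.29, SE 0.062, edgeR adjusted p = 0.0207), and the small heat shock protein Hspb8 rose (0.84, SE 0.18, edgeR adjusted p = 0.0204). Hsf1 lost the call in 3 of the 6 fits with 1 library left out, and Pabpc1 and Hspb8 in 2.

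Tfeb, a transcription factor of lysosome and autophagy genes (chr17:47737030-47792419), rose, and so did 5 of 50 tested lysosome genes. Tfeb had 14.8, 12.4 and 12.02 CPM in ALSC, against 1.65, 1.46 and 1.46 CPM in AFSC (log2 change 3.10, SE 0.22, edgeR adjusted p = 6.98e-05), and was higher in ALSC than in ABSC (2.11 CPM, edgeR adjusted p = 5.41e-05). Its relative Mitf fell at a low level (-1.03, SE 0.27, edgeR adjusted p = 0.0492). Of the lysosome list 5 of 50 tested members rose and 0 fell (17 and 4 with the block, and 1 to 5 called with 1 library left out, fewest without AFSC 2 or AFSC 3), with a median of 0.18. The glycosidase Gusb had 20.0, 18.8 and 18.2 CPM in ALSC, against 10.4, 9.17 and 7.94 CPM in AFSC (log2 change 1.05, SE 0.16, edgeR adjusted p = 0.00476). Hexa (1.00), Idua (1.46, overlapping Dgkq and Slc26a1) and Manba (0.82), further sugar-cleaving enzymes, and the protease Ctsl (0.34) also rose. In the autophagy list 1 of 38 tested members rose and 0 fell (7 and 4 with the block, and 0 to 1 called with 1 library left out, fewest without AFSC 2), namely Gabarap (0.46, SE 0.081, edgeR adjusted p = 0.00902). In the vacuolar proton pump list 1 of 17 tested members rose and 0 fell (1 and 2 with the block, and 0 to 1 called with 1 library left out, fewest without AFSC 1 or AFSC 2 or AFSC 3 or ALSC 2 or ALSC 3), namely Atp6v1b2 (0.25, SE 0.051, edgeR adjusted p = 0.0190). TCACGTGA, the core of the motif that TFEB binds, was present in 5 of 41 lysosome promoters (12.2%) and in 2.06% of all promoters. It was present in 1 of 421 promoters of genes that rose (0.238%) and in 4 of 430 of genes that fell (0.93%). Tfeb and Gusb were called in each of the 6 fits that left out 1 library. Mitf, Manba and Atp6v1b2 lost the call in 5 of the 6 fits with 1 library left out, Ctsl in 3, Hexa and Idua in 2, and Gabarap in 1.

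Among the called matrix and mesenchymal genes more fell than rose in ALSC. Of collagens and matrix proteins 3 of 47 tested members rose and 9 fell (10 and 11 with the block, and 5 to 11 called with 1 library left out, fewest without AFSC 2 or AFSC 3). The list as a whole did not shift down, since its median was 0.075, against 0.0026 over all genes. A higher level in ALSC was seen in 27 of the 47. The proteoglycan Vcan, versican, had 60.9, 68.7 and 72.0 CPM in ALSC, against 126, 158 and 158 CPM in AFSC (log2 change -1.14, SE 0.10, edgeR adjusted p = 0.000185). Thbs1, thrombospondin, had 11.6, 10.7 and 9.42 CPM in ALSC, against 22.8, 24.9 and 20.9 CPM in AFSC (log2 change -1.11, SE 0.22, edgeR adjusted p = 0.0149). Tnc, tenascin C, fell at a low level (-2.09, SE 0.33, edgeR adjusted p = 0.00566). The linked basement membrane collagen genes Col4a5 and Col4a6 rose together (0.92 and 0.75), as did fibronectin, Fn1 (0.38, SE 0.086, edgeR adjusted p = 0.0259). Without both libraries numbered 1 the list had 0 higher and 11 lower. Vcan and Tnc were called in each of the 6 fits that left out 1 library. Col4a5 lost the call in 6 of the 6 fits with 1 library left out, Col4a6 in 5, Fn1 in 4, and Thbs1 in 3.

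The list of epithelial-mesenchymal transition (EMT) regulators and mesenchymal genes had 2 that rose and 8 that fell among 29 tested members (3 and 13 with the block, and 2 to 13 called with 1 library left out). Twist1, a mesodermal EMT factor, had 0.230, 0.157 and 0.153 CPM in ALSC, against 1.39, 1.28 and 1.41 CPM in AFSC (log2 change -2.86, SE 0.37, edgeR adjusted p = 0.00225). Anxa1, an actin- and membrane-binding annexin, had 0.459, 0.627 and 0.306 CPM in ALSC, against 1.24, 4.63 and 3.71 CPM in AFSC (log2 change -2.77, SE 0.51, edgeR adjusted p = 0.0117), with AFSC 1 well under the other AFSC libraries. S100a6 (-1.12), Lgals1 (-0.75), Anxa5 (-0.66), Anxa3 (-0.79), Tagln2 (-0.53) and Cnn1 (-0.82) fell too, and the EMT factor Zeb1 rose (1.26, SE 0.25, edgeR adjusted p = 0.0176). Markers of fibroblasts were not called, and their summed level was 25.7, 12.8 and 11.9 CPM in the 3 ALSC libraries, against 19.6, 19.5 and 17.5 CPM in the 3 AFSC libraries. In a bulk sample fewer cells of a type and less RNA per cell cannot be told apart, and the part of rare cells in these falls was not tested. Lgals1, Tagln2 and Cnn1 lost the call in 5 of the 6 fits with 1 library left out, Anxa5, Anxa3 and Zeb1 in 4, and Anxa1 in 3.

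Epithelial genes too fell more often than they rose. Of the list of epithelial junctions and keratins 3 of 52 tested members rose and 7 fell (7 and 17 with the block, and 4 to 14 called with 1 library left out, fewest without AFSC 2 or AFSC 3 or ALSC 3). The vesicle GTPase Rab25 had 14.7, 12.2 and 12.5 CPM in ALSC, against 28.1, 23.7 and 22.7 CPM in AFSC (log2 change -0.92, SE 0.12, edgeR adjusted p = 0.00237). The paired keratins Krt8 (-0.63, SE 0.12, edgeR adjusted p = 0.0116) and Krt18 (-0.44, SE 0.092, edgeR adjusted p = 0.0208) and the epithelial regulator Grhl2 (-0.58) fell, while its relative Grhl3 rose (0.77). Cdh1, E-cadherin, was not called (-0.073, SE 0.087, edgeR adjusted p = 0.698). In the actin list 2 of 58 tested members rose and 9 fell (7 and 14 with the block, and 2 to 10 called with 1 library left out, fewest without AFSC 2). Those that fell included the cross-linkers Flna (-0.22) and Flnc (-1.09) and the abundant actin regulators Cfl1 and Pfn1 (-0.28 and -0.33). The GTPases Rhob (0.67) and Rhoc (0.60) rose. Of the laminins and integrins, Itgb4 (-1.29, SE 0.20, edgeR adjusted p = 0.00553) and Itga3 (-0.74, SE 0.12, edgeR adjusted p = 0.00611), receptor subunits for laminin, and Itgb2 (-1.08) fell, and Tln2, talin 2, rose (0.46). Rab25, Itgb4 and Itga3 were called in each of the 6 fits that left out 1 library. Krt18, Grhl3, Rhob and Itgb2 lost the call in 5 of the 6 fits with 1 library left out, Flnc and Rhoc in 4, Krt8 and Flna in 3, and Cfl1 and Pfn1 in 2.

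Of the cues that guide axons and vessels, more fell than rose. In the list of semaphorins, netrins, slits and their receptors 1 of 44 tested members rose and 5 fell (6 and 9 with the block, and 3 to 7 called with 1 library left out, fewest without AFSC 2 or AFSC 3 or ALSC 3). Nrp2, a co-receptor of semaphorins and VEGF, had 9.88, 27.5 and 26.5 CPM in ALSC, against 46.9, 84.1 and 79.4 CPM in AFSC (log2 change -1.72, SE 0.37, edgeR adjusted p = 0.0264, overlapping Gm37121), with the libraries numbered 1 lowest in both cell types. Sema3e had 21.4, 34.1 and 31.9 CPM in ALSC, against 74.8, 75.0 and 71.0 CPM in AFSC (log2 change -1.34, SE 0.16, edgeR adjusted p = 0.00126). The slit receptors Robo1 (-0.53) and Robo3 (-1.77) and the plexin Plxnb1 (-0.46) fell, while Sema5a rose (0.77, SE 0.18, edgeR adjusted p = 0.0282). Of the ephrin family Efna5 fell (-1.29, SE 0.17, edgeR adjusted p = 0.00220) with the receptor Epha1 (-0.49, SE 0.073, edgeR adjusted p = 0.00444, overlapping 2010310C07Rik and Zyx). Sema5a lost the call in 6 of the 6 fits with 1 library left out, Robo1 in 4, and Nrp2 in 3.

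WNT, Notch and TGF-beta members moved in both directions. Lef1, a nuclear partner of beta-catenin, had 6.66, 5.85 and 5.96 CPM in ALSC, against 12.7, 19.4 and 16.8 CPM in AFSC (log2 change -1.40, SE 0.21, edgeR adjusted p = 0.00444). The ligands Wnt6 and Wnt7b fell at low levels (-1.88 and -1.83), and Wls, which carries WNT proteins to the surface, rose (0.69, SE 0.11, edgeR adjusted p = 0.00644). The Notch ligand Jag2 fell (-0.69, SE 0.14, edgeR adjusted p = 0.0194) and Dll3 rose (1.03, SE 0.23, edgeR adjusted p = 0.0278). In the TGF-beta list Lefty2, an inhibitor of Nodal, had 54.7, 46.6 and 42.8 CPM in ALSC, against 16.4, 19.5 and 21.4 CPM in AFSC (log2 change 1.33, SE 0.13, edgeR adjusted p = 0.000481). The Nodal co-receptor Tdgf1, CRIPTO, had 1024, 902 and 886 CPM in ALSC, against 571, 549 and 547 CPM in AFSC (log2 change 0.75, SE 0.084, edgeR adjusted p = 0.000996). Id2, an inhibitor of bHLH factors that BMP induces, had 1.33, 1.83 and 1.83 CPM in ALSC, against 5.72, 7.61 and 6.30 CPM in AFSC (log2 change -1.98, SE 0.17, edgeR adjusted p = 0.000182). The BMP4 cells, ABSC, held 30.2 CPM of Id2. In the Hippo list Vgll3, a partner of TEAD factors, fell (-2.16, SE 0.35, edgeR adjusted p = 0.00610) and Ctgf, a YAP target, rose (0.67, SE 0.13, edgeR adjusted p = 0.0174). Lef1, Lefty2, Tdgf1 and Id2 were called in each of the 6 fits that left out 1 library. Dll3 lost the call in 6 of the 6 fits with 1 library left out, Wnt6 and Jag2 in 5, Ctgf in 3, and Wnt7b in 2.

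Chromatin genes changed mostly by small amounts. Of histones and high-mobility-group variants 6 of 27 tested members rose and 1 fell (10 and 5 with the block, and 2 to 10 called with 1 library left out, fewest without AFSC 2 or AFSC 3). Those that rose included the macroH2A genes H2afy (0.53, SE 0.11, edgeR adjusted p = 0.0192) and H2afy2 (1.11, SE 0.14, edgeR adjusted p = 0.00215, overlapping Aifm2), and H2afz, which encodes H2A.Z, with 808, 801 and 809 CPM in ALSC, against 719.5, 649.9 and 644 CPM in AFSC (log2 change 0.26, SE 0.056, edgeR adjusted p = 0.0208). In the DNA methylation list 2 of 30 tested members rose and 4 fell (6 and 9 with the block, and 3 to 5 called with 1 library left out, fewest without AFSC 2 or AFSC 3 or ALSC 3). The de novo methyltransferase Dnmt3a had 209, 212 and 206 CPM in ALSC, against 253, 291 and 294 CPM in AFSC (log2 change -0.42, SE 0.09, edgeR adjusted p = 0.0218). Tet3, an oxidase of methylated cytosine, fell (-0.84, SE 0.14, edgeR adjusted p = 0.00802), and so did Cxxc4 (-1.29, SE 0.21, edgeR adjusted p = 0.00619). Dnmt3b, the other de novo enzyme and among the most abundant genes of the list, was called with the block (edgeR adjusted p = 0.0472 with the block, overlapping Dnmt3bos) and not without it (-0.23, SE 0.077, edgeR adjusted p = 0.111). H2afy, H2afz and Dnmt3a lost the call in 4 of the 6 fits with 1 library left out.

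Polycomb genes, whose products silence developmental genes, had 2 that rose and 5 that fell among 39 tested members (4 and 9 with the block, and 1 to 6 called with 1 library left out). Phf1 (-0.67, SE 0.13, edgeR adjusted p = 0.0130) and Phf19 (0.55, SE 0.10, edgeR adjusted p = 0.0102), 2 accessory factors of PRC2, moved in opposite directions. Of histone methyltransferases and demethylases 2 of 64 tested members rose and 6 fell (3 and 15 with the block, and 2 to 6 called with 1 library left out, fewest without AFSC 2). Mllt10, a partner of the H3K79 methyltransferase, had 23.6, 16.3 and 14.4 CPM in ALSC, against 70.4, 60.3 and 61.1 CPM in AFSC (log2 change -1.82, SE 0.16, edgeR adjusted p = 0.000242, overlapping Dnajc1), and that enzyme's gene Dot1l fell slightly (-0.31, SE 0.052, edgeR adjusted p = 0.00787). Of imprinted genes 5 of 52 tested members rose and 3 fell (11 and 7 with the block, and 3 to 8 called with 1 library left out, fewest without AFSC 2 or AFSC 3). Sfmbt2, expressed from the father's copy in the mouse placenta, had 64.3, 64.0 and 69.3 CPM in ALSC, against 19.3, 25.7 and 26.9 CPM in AFSC (log2 change 1.46, SE 0.22, edgeR adjusted p = 0.00525). Magel2 fell (-0.83, SE 0.18, edgeR adjusted p = 0.0208). The maternally expressed RNA Rian had 672, 602 and 617 CPM in ALSC, against 506, 464 and 440.0 CPM in AFSC (log2 change 0.42, SE 0.066, edgeR adjusted p = 0.00566), among the 10 largest rises in CPM of any gene. Phf1, Phf19 and Magel2 lost the call in 2 of the 6 fits with 1 library left out, and Dot1l in 1.

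In the germline list of 74 genes 5 of 26 tested members rose and 0 fell (10 and 2 with the block, and 2 to 5 called with 1 library left out, fewest without AFSC 3). Tfap2c, which acts in trophoblast and primordial germ cells, had 15.7, 20.8 and 19.7 CPM in ALSC, against 2.22, 5.39 and 3.76 CPM in AFSC (log2 change 2.30, SE 0.47, edgeR adjusted p = 0.0192). Kit, the receptor of stem cell factor, had 67.5, 83.8 and 85.0 CPM in ALSC, against 41.6, 33.9 and 41.0 CPM in AFSC (log2 change 1.02, SE 0.13, edgeR adjusted p = 0.00190). The Piwi partners Tdrkh (1.24) and Tdrd5 (0.88) rose too. Dppa3, an oocyte and germ cell factor, was at 0 counts in all 3 AFSC libraries and averaged 0.772 CPM in ALSC. That was at least 15.9-fold higher against a floor of 3 counts over the 3 AFSC libraries (edgeR adjusted p = 0.00303). ABSC held 1.87, 2.09 and 1.72 CPM of Dppa3, above ALSC. En1, a homeobox factor of the midbrain and limb, was likewise at 0 in AFSC and at 0.951 CPM in ALSC, at least 19.6-fold higher against the same floor (edgeR adjusted p = 0.00902). Of the other homeobox genes the forebrain and pituitary factor Hesx1 rose (2.44, SE 0.36, edgeR adjusted p = 0.00422), as did the organizer factor Gsc (1.02, SE 0.20, edgeR adjusted p = 0.0167), and Nkx2-9 fell, with 2.34, 1.67 and 1.17 CPM in ALSC, against 7.73, 10.9 and 10.5 CPM in AFSC (log2 change -2.48, SE 0.25, edgeR adjusted p = 0.000575). Tdrd5 lost the call in 6 of the 6 fits with 1 library left out, Tfap2c and Gsc in 4, and Tdrkh in 1.

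Among transporters and metabolic enzymes calls were spread over single genes. Of the solute transporters 7 of 92 tested members rose and 7 fell (18 and 17 with the block, and 7 to 15 called with 1 library left out, fewest without AFSC 2). The beta subunits of the sodium pump moved apart, with Atp1b2 higher (1.61, SE 0.20, edgeR adjusted p = 0.00213) and Atp1b1 lower (-0.50, SE 0.10, edgeR adjusted p = 0.0154). Slc39a4, a zinc importer, had 28.2, 31.8 and 29.4 CPM in ALSC, against 11.3, 11.1 and 10.4 CPM in AFSC (log2 change 1.45, SE 0.13, edgeR adjusted p = 0.000327). In the glutathione list 5 of 39 tested members rose and 2 fell (12 and 3 with the block, and 4 to 6 called with 1 library left out, fewest without AFSC 2 or AFSC 3). Gstt1 (3.37, SE 0.48, edgeR adjusted p = 0.00354), Nqo1 (1.37, SE 0.25, edgeR adjusted p = 0.0105) and Gpx4 (0.54, SE 0.11, edgeR adjusted p = 0.0196) were among those that rose. In the glycosylation list 8 of 95 tested members rose and 2 fell (19 and 6 with the block, and 4 to 11 called with 1 library left out, fewest without AFSC 2). The rises were led by the fucosyltransferase Fut4 (2.20, SE 0.26, edgeR adjusted p = 0.00152) and the heparan sulphate sulphotransferase Hs3st3b1 (1.71, SE 0.29, edgeR adjusted p = 0.00832). Fatty acid genes had 5 that rose and 2 that fell among 41 tested members (11 and 6 with the block, and 2 to 7 called with 1 library left out). The carnitine palmitoyltransferases moved apart, with Cpt1a higher (1.13, SE 0.21, edgeR adjusted p = 0.0131) and Cpt1c lower (-0.49, SE 0.11, edgeR adjusted p = 0.0276, overlapping 6530437J22Rik). Cpt1c lost the call in 5 of the 6 fits with 1 library left out, Gpx4 in 4, Atp1b1 in 3, and Cpt1a in 2.

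Among the few called members of the list of chemokines, cytokines and their receptors, more rose than fell. The share called was 13.2%, against 7.04% of all genes, and with the block 31.6%, against 22.2%. In the list 4 of 38 tested members rose and 1 fell (9 and 3 with the block, and 3 to 6 called with 1 library left out, fewest without AFSC 2 or AFSC 3 or ALSC 2 or ALSC 3). Aplnr, the apelin receptor of early mesoderm, had 10.4, 4.28 and 7.18 CPM in ALSC, against 1.03, 1.75 and 1.27 CPM in AFSC (log2 change 2.43, SE 0.44, edgeR adjusted p = 0.0108). The interleukin 17 receptor subunit Il17rc (1.60, SE 0.17, edgeR adjusted p = 0.000703) and the chemokine scavenger Ackr3 (1.39, SE 0.32, edgeR adjusted p = 0.0283) rose too. Of the genes of NF-kappaB and the acute phase 2 of 26 tested members rose and 3 fell (5 and 4 with the block, and 2 to 4 called with 1 library left out, fewest without AFSC 2 or AFSC 3 or ALSC 2). Cebpd (-0.72, SE 0.19, edgeR adjusted p = 0.0496), a STAT3-responsive factor in other cells, and Nfkb1 (-0.30, SE 0.073, edgeR adjusted p = 0.0355) were lower. Of growth-factor receptors and ligands 2 of 50 tested members rose and 3 fell (11 and 8 with the block, and 2 to 6 called with 1 library left out, fewest without AFSC 2 or AFSC 3 or ALSC 2). The ERBB ligand Nrg1 was lower, at 0.919, 1.15 and 1.32 CPM in ALSC, against 2.58, 3.31 and 3.01 CPM in AFSC (log2 change -1.39, SE 0.23, edgeR adjusted p = 0.00712). Of iron and copper genes Hfe, the haemochromatosis protein, and Steap3, a ferrireductase, rose beside Steap4 (2.82 and 1.08). Hfe lost the call in 6 of the 6 fits with 1 library left out, Nfkb1 and Steap3 in 5, Ackr3 and Cebpd in 4, and Aplnr in 1.

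Of cadherins and protocadherins 2 of 37 tested members rose and 3 fell (5 and 11 with the block, and 1 to 5 called with 1 library left out, fewest without AFSC 2). Cdh13, which lacks a cytoplasmic tail, was higher (1.42, SE 0.33, edgeR adjusted p = 0.0299) and Pcdh7 was lower (-0.96, SE 0.24, edgeR adjusted p = 0.0413). Matrix proteases and inhibitors had 3 that rose and 3 that fell among 44 tested members (6 and 7 with the block, and 2 to 6 called with 1 library left out). The inhibitor Timp2 was higher, at 10.4, 7.20 and 5.76 CPM in ALSC, against 3.92, 3.83 and 3.48 CPM in AFSC (log2 change 1.06, SE 0.24, edgeR adjusted p = 0.0282). Ion channels and receptors of excitable cells had 3 that rose and 7 that fell among 83 tested members (7 and 17 with the block, and 3 to 11 called with 1 library left out). Of splicing and messenger RNA processing factors 1 of 79 tested members rose and 4 fell (3 and 15 with the block, and 2 to 4 called with 1 library left out, fewest without AFSC 2 or AFSC 3 or ALSC 2 or ALSC 3). The share called was 6.33%, against 7.04% of all genes, and with the block 22.8%, against 22.2%. Rbm20, the splicing factor of titin, led the falls (-0.85, SE 0.19, edgeR adjusted p = 0.0277). In the list of Sox, Fox, Gata, Klf and T-box factors 2 of 65 tested members rose and 5 fell (11 and 11 with the block, and 2 to 8 called with 1 library left out, fewest without AFSC 2). Tbx4, a factor of the hindlimb and allantois, was at 0.505, 0.261 and 0.204 CPM in ALSC, against 2.27, 2.69 and 1.93 CPM in AFSC (log2 change -2.78, SE 0.36, edgeR adjusted p = 0.00225). T, brachyury, a mesoderm factor of the primitive streak, had 134, 132 and 143 CPM in ALSC, against 65.9, 72.8 and 74.0 CPM in AFSC (log2 change 0.94, SE 0.23, edgeR adjusted p = 0.0375). It missed the test with the block (edgeR adjusted p = 0.0708 with the block). ABSC held 72.2, 151 and 153 CPM of T. Pcdh7 and T lost the call in 6 of the 6 fits with 1 library left out, Timp2 in 5, and Cdh13 and Rbm20 in 4.

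Lists of energy metabolism and cell division had few called members without the block. Of 70 tested nuclear genes of oxidative phosphorylation edgeR called 0, with 9 at an unadjusted p under 0.05, and DESeq2 called 1; with the block 6 were higher and 1 lower. Of 13 mitochondrial genes both tools called 0, also with the block, with 1 at an unadjusted p under 0.05 by edgeR. Of 31 genes of the low-oxygen response edgeR called 0, with 2 at an unadjusted p under 0.05, and DESeq2 called 1; with the block 7 were higher and 3 lower (32.3%). Of 15 Hedgehog pathway genes both tools called 0, with 5 at an unadjusted p under 0.05 by edgeR; with the block 4 were higher and 2 lower, against 22.2% of all genes called. In the glycolysis list 0 of 30 tested members rose and 1 fell (6 and 5 with the block, and 0 to 2 called with 1 library left out, fewest without AFSC 2 or AFSC 3 or ALSC 2 or ALSC 3). In the DNA replication list 2 of 52 tested members rose and 0 fell (12 and 1 with the block, and 0 to 3 called with 1 library left out, fewest without AFSC 2). Top2a, topoisomerase II, was one of those that rose, with 1313, 1254 and 1186 CPM in ALSC, against 982, 1018 and 1047 CPM in AFSC (log2 change 0.30, SE 0.051, edgeR adjusted p = 0.00787). Of genes of mitosis 2 of 56 tested members rose and 2 fell (7 and 3 with the block, and 0 to 4 called with 1 library left out, fewest without AFSC 2 or AFSC 3). The share of mitosis genes called was 7.14%, against 7.04% of all genes, and with the block 17.9%, against 22.2%. Top2a lost the call in 1 of the 6 fits with 1 library left out.

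On chromosome 11 rises outnumbered falls. Of its 1243 tested genes 71 rose and 23 fell, and 64.2% had a higher level in ALSC, against 50.4% of all genes. The median log2 fold change of chromosome 11 was 0.086, the highest among the 19 autosomes and the X chromosome. Among its 758 genes at 10 CPM or more, the median shift from the AFSC mean was 0.093, 0.081 and 0.059 on the log2 scale in the 3 ALSC libraries, against 0.012, -0.0069 and -0.0050 in the 3 AFSC libraries. All 3 ALSC libraries were thus above all 3 AFSC libraries, while ABSC lay at 0.0097, 0.0086 and -0.011. The shift was above 0 in every ALSC library in each of 5 blocks of about 152 neighbouring genes along the chromosome. Chromosome 8 had a smaller shift, of 0.064, 0.049 and 0.037 in ALSC against 0.0086, -0.0013 and -0.0075 in AFSC. Stat3, Stat5a, Socs3, Upp1, Irf1 and Top2a, which rose, lie on chromosome 11, as do Etv4, Tbx4 and Itgb4, which fell. No measurement of DNA was analysed here.

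**Figure D5:**
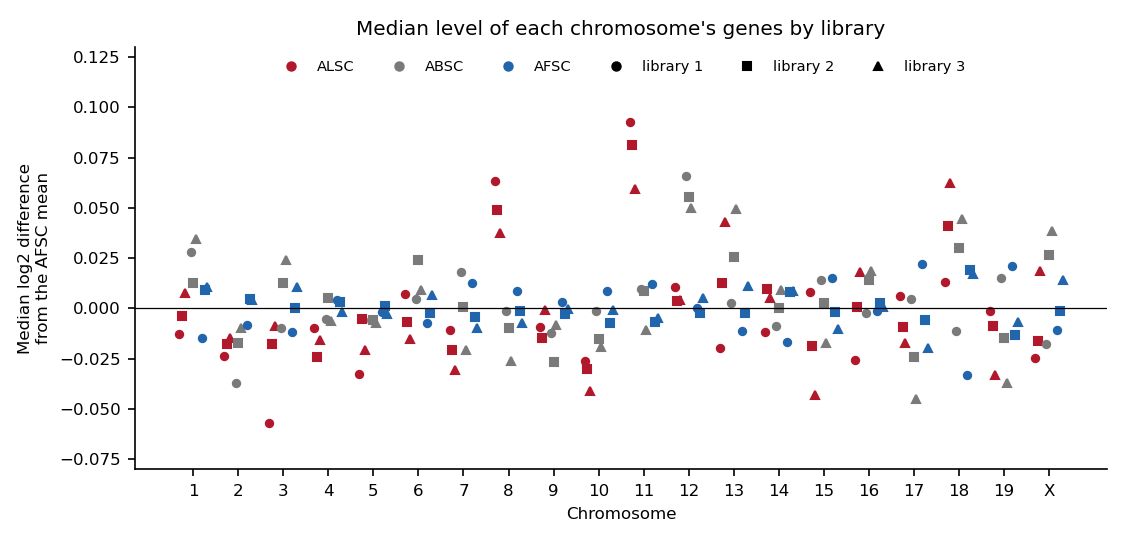
For each chromosome, points give the median log2 difference of its genes at 10 CPM or more from the AFSC mean in each library, with ALSC at the left, ABSC in the middle and AFSC at the right, and marker shapes for the library number. On chromosome 11 the 3 ALSC libraries lie between 0.059 and 0.093, apart from the other 6 libraries.

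Direction also went with level. When the genes were split into 10 equal bins by mean level, in the highest bin 27 rose and 109 fell, and 30.6% had a higher level in ALSC. In bin 5, counted from the lowest level, 79 rose and 47 fell, and 61.1% had a higher level. The largest falls in CPM were those of abundant genes changed by little, such as Ybx1 (-0.19, SE 0.049, edgeR adjusted p = 0.0404), Serbp1 (-0.17, SE 0.039, edgeR adjusted p = 0.0270) and Hmga1 (-0.33, SE 0.053, edgeR adjusted p = 0.00661, overlapping AC127341.3 and AI413582). Of protein-coding genes 8.15% were called, and of processed pseudogenes 0.238%. Of 1038 genes that the table assigns to a transcription factor family 38 rose and 49 fell (8.38%). The share called was 16.7% of 54 bHLH, 14.0% of 43 bZIP and 4.75% of 484 C2H2 zinc finger genes. Ybx1 and Serbp1 lost the call in 5 of the 6 fits with 1 library left out.

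Marker lists of other cell types were read in the same libraries. For primitive or visceral endoderm the 9 markers summed to 41.3, 30.0 and 30.8 CPM in ALSC, against 29.3, 25.2 and 26.3 CPM in AFSC, with 0 called and 2 at 0 in all 6 libraries. Mesoderm and heart markers summed to 5.65, 4.65 and 5.10 CPM in ALSC, against 1.86, 2.08 and 1.69 CPM in AFSC, and Myl7, an atrial myosin light chain, rose (4.11, SE 0.65, edgeR adjusted p = 0.00570). Blood markers summed to under 5 CPM in every library. Neural markers had 0 called among 4 tested, and Nes, which made up most of their sum, was at 232 ± 39.98 CPM in ALSC and 253 ± 13.4 in AFSC (SD, n = 3 each). Of 10 trophoblast markers Hand1 and Tfap2c rose and Krt8 fell. Gata3 and Elf5 were too low to be tested, and 2 were at 0 in all 6 libraries. Hand1 was low in ALSC, at 2.53, 1.88 and 1.83 CPM, against 0.155, 0.189 and 0.376 CPM in AFSC. ABSC held 244, 208 and 188 CPM of Hand1. The 9 markers of naive embryonic stem cells summed to 164, 262 and 263 CPM in ALSC, against 129, 127 and 133 CPM in AFSC. Tfcp2l1 and Dppa3 were called. Of these sums Tfcp2l1 alone held 66.8, 128 and 132 CPM in ALSC, against 17.3, 23.4 and 23.2 CPM in AFSC. Esrrb, which made up most of the rest, was not called. The 8 epiblast markers summed to 3164, 3516 and 3463 CPM in ALSC, against 3866, 3858 and 3916 CPM in AFSC. Dnmt3b and Pou5f1 made up most of these sums, and Dnmt3b was not called without the block. Pou5f1, which lost the call in 6 of the 6 fits with 1 library left out, and Pou3f1 were lower. T was higher (0.94, SE 0.23, edgeR adjusted p = 0.0375), but was called neither with the block nor in any fit with 1 library left out. The part of other cells in the changes above was not tested.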

How the data were processed

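Per the labels, poly(A) RNA libraries of 3 ALSC, 3 ABSC and 3 AFSC samples were sequenced on Illumina instruments. The submitters' processing notes name HISAT2 2.0.5, featureCounts 1.5.0-p3 and the build mm9. The gene coordinates in the deposited table fit GRCm38 instead: of 54409 genes shared with the GENCODE M21 annotation, 98.33% had the same coordinates. The authors deposited whole-number counts per gene, not normalised, for 54878 entries. The 346 entries without an Ensembl identifier held 0.208 to 0.227% of the counts of a library and were left out. Further filters of the authors are not given in the sources used here.

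Counts were filtered in edgeR 4.0.16 (R 4.3.3; filterByExpr, minimum count 10, minimum total count 15), scaled by TMM factors (0.963 to 1.06) and fitted with the robust quasi-likelihood model to all 9 libraries by cell type. The contrast was ALSC minus AFSC, 2-sided, with Benjamini-Hochberg adjusted p under 0.05 over the 16178 genes tested. The biological coefficient of variation was 0.147. CPM were computed from the same factors, an SE is the log2 fold change divided by the square root of the test's F, and 3 counts in a library correspond to 0.138 to 0.157 CPM. Intervals and floors of counts cover counting error only. A match of library numbers was checked before the calls were compared. Deviations from the cell-type means correlated between libraries of one number at 0.464 to 0.554 for number 1, 0.197 to 0.287 for number 2 and 0.224 to 0.356 for number 3. All were above 0.1, so the numbers were taken to pair the libraries, on the data alone since no label says what a number marks. Numbers 2 and 3 also correlated with each other (0.221 to 0.273), and AFSC 2 correlated with ALSC 3 at 0.273 and with ALSC 2 at 0.197. The check thus set number 1 apart but could not tell number 2 from number 3, and the block relies on that pairing too.

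The text names 28 key genes, up to 4 called members of a list with the largest changes (1 CPM or more in the higher mean), the 15 largest rises and falls in log2 fold change (10 CPM or more, no overlap of the libraries) and the 10 largest in CPM. A further 69 genes were chosen after their values were seen. Some genes within the rule are not reported here. Members and lists were chosen with earlier results of these data known. Overlapping genes are those whose annotated regions overlap that of another tested gene. The fits were tested on simulated data. These held no effect of library number, so they cannot show how either fit behaves in its presence. Alternatives were the block, the 6 libraries alone, DESeq2 1.42.0, other scalings and filters, non-robust dispersions and libraries left out. Promoters (250 bases before to 50 after the start) came from RefSeq on GRCm38.p6. Figures were drawn with matplotlib 3.10.9.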

Additional observations from a re-analysis of the deposited data

How the results depend on the processing

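The count of genes changed was 1139. With the block, the library number as a term of the fit, it was 3590 (1796 higher and 1794 lower), and with the block on the 6 libraries alone 3022 (1495 higher and 1527 lower). Leaving out 1 library gave 345 to 1012 genes (154 to 443 higher and 182 to 569 lower), and 303 genes were called in all 6 such fits. Without both libraries numbered 1 there were 317 higher and 498 lower genes. With fewer libraries the test has fewer degrees of freedom, and the part of single libraries in these counts was not tested further. The 6 libraries without the block (1022), DESeq2 (1622), RLE size factors (1135), library size only (1110), no filter (1226), a minimum count of 50 (1073) and non-robust dispersions (1116) stayed within 1.5 times of the count. glmTreat against a 1.5-fold change called 112 genes, 109 of them among the 370 called with a change of at least 2-fold. Of the 231 called genes named by rule, 229 were also called with the block, and 97 were called in all 6 fits that left out 1 library. Of the 242 such genes tested, no filter on low counts ended 33 calls, the 6 libraries alone 31, library size only 19, RLE size factors 5, non-robust dispersions 3, a minimum count of 50 ended 1 and DESeq2 none. Leaving out 1 library ended 39 to 128. The block changed the call of Fgf8, T, Lif, Dnmt3b, Egr1, Bmi1, Cdkn1a, Klf2 and Stat2 and of no other gene named here. Changes of sign were seen only in genes not called. With library size only the log2 change was 0.026 for Mycn, 0.044 for B2m, 0.014 for Esrrb, 0.033 for Irf9 and 0.043 for Commd3. With 1 library or both numbered 1 left out, the range was -0.11 to 0.28 for Klf4, -0.16 to 0.14 for Mycn, -0.21 to 0.066 for B2m, -0.094 to 0.093 for Esrrb, -0.067 to 0.038 for Irf9 and -0.077 to 0.054 for Commd3. Genes under 1 CPM rest on few counts, and differences at that level may not be detectable at this depth. A gene near 0 in all cell types but one passed the filter through that cell type, which set the direction of its change in advance.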

Other observations

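Some called genes lie side by side, a pattern chosen after the values were seen and not tested. On chromosome 2 the 4 neighbouring tested genes Plxdc2, A930004D18Rik, Skida1 and Mllt10 fell (chr2:16356304-18212388). Skida1 had 0.0919, 0 and 0.204 CPM in ALSC, against 6.44, 3.69 and 4.18 CPM in AFSC (log2 change -5.50, SE 0.59, edgeR adjusted p = 0.000833), and ABSC averaged 6.54 CPM. A930004D18Rik had 0.643, 0.522 and 0.866 CPM in ALSC, against 8.91, 6.47 and 7.05 CPM in AFSC (log2 change -3.45, SE 0.22, edgeR adjusted p = 6.08e-05), with 11.04 CPM in ABSC. Plxdc2, at one end of the run, changed less (-0.57, SE 0.12, edgeR adjusted p = 0.0185) and lost the call in 4 of the 6 fits that left out 1 library. The genes beyond Mllt10 were not called, namely Dnajc1 (-0.079, SE 0.12, edgeR adjusted p = 0.772), Commd3 (-0.0042, SE 0.12, edgeR adjusted p = 0.990) and the polycomb gene Bmi1 (-0.66, SE 0.18, edgeR adjusted p = 0.0536), which was called with the block (edgeR adjusted p = 0.00682 with the block). On chromosome 6 the neighbours Apobec1, Gdf3 and Dppa3 rose together (chr6:122577792-122630272).

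Some genes at or near 0 in one cell type were found in every library of the other. Hamp2, Ampd1, Egr3 and Zfpm2 were low in ABSC too, and passed the filter on low counts through the cell type where they were higher. The filter thus set the direction of their change, and their p-values give it no further support. S100a8 and S100a9, the calprotectin subunits of neutrophils and inflamed epithelium, were higher in ALSC. S100a8 had 0.413, 0.888 and 1.121 CPM in ALSC, against 0, 0.0472 and 0 CPM in AFSC (edgeR adjusted p = 0.00584). S100a9 had 0.551, 0.783 and 0.662 CPM in ALSC and 0 counts in every AFSC library (edgeR adjusted p = 0.00374), at least 13.7-fold higher in ALSC against a floor of 3 counts over the 3 AFSC libraries. ABSC averaged 0.679 CPM of S100a8 and 0.865 CPM of S100a9. Hamp2, a hepcidin gene, had 0.551, 1.88 and 1.88 CPM in ALSC, against 0.0515, 0 and 0 CPM in AFSC (edgeR adjusted p = 0.00998), and was at 0 counts in ABSC. Serpina3i, of the acute-phase serpin family, had 1.42, 0.940 and 0.968 CPM in ALSC, against 0, 0.0472 and 0.0470 CPM in AFSC (edgeR adjusted p = 0.00235). In the other direction Ampd1, the AMP deaminase of muscle, had 0, 0.0522 and 0.0509 CPM in ALSC, against 1.49, 1.89 and 2.02 CPM in AFSC (edgeR adjusted p = 0.000566). Egr3, an immediate early gene, had 0.276, 0.261 and 0 CPM in ALSC, against 2.11, 1.51 and 1.22 CPM in AFSC (log2 change -3.11, SE 0.59, edgeR adjusted p = 0.0137). Zfpm2, a partner of GATA factors, had 0.0459, 0.365 and 0.255 CPM in ALSC, against 0.824, 2.17 and 2.40 CPM in AFSC (log2 change -3.02, SE 0.58, edgeR adjusted p = 0.0145). In ABSC the means of Ampd1, Egr3 and Zfpm2 were 0.0834 CPM, 0.254 CPM and 0.421 CPM, and their differences between ALSC and ABSC did not pass the test. Zfpm2 lost the call in 3 of the 6 fits with 1 library left out, Hamp2 in 2, and Egr3 in 1.

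Dusp9, an ERK phosphatase on the X chromosome and outside the lists, varied little within a cell type, with 59.7, 60.6 and 59.7 CPM in ALSC, against 108, 108 and 113 CPM in AFSC (log2 change -0.87, SE 0.053, edgeR adjusted p = 5.27e-05), and stood at 159 CPM in ABSC.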
